A study of Mus musculus with 32 samples.

Results

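The mRNAs of the translation initiation factors were followed in macrophages grown from bone marrow (BMDMs) of WT and Ifnar1-/- mice, the latter without a chain of the type I interferon receptor. The members were all genes whose symbol on the array begins with Eif and a number, from eIF1 to eIF6, with the proteins that bind eIF4E. The Eif2ak genes, which encode kinases, and the Y-linked Eif2s3y were left out by the same rule. The array held 50 such genes among 24082 genes with a symbol. Of these, 49 were measured among 16037 genes measured, which means that at least 1 probe was well above background on at least 50% of the arrays. The gene that was not measured, Eif4e1b, had 1 probe above background on 8 of 32 arrays and 1 on 0.

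BMDMs of each genotype were left untreated or treated for 6 h with zVAD, with LPS or IFNβ alone, with either of these and zVAD, or with either of these, zVAD and Nec-1, which makes 16 groups of 2 arrays. LPS is a bacterial ligand of TLR4, IFNβ is a type I interferon, zVAD blocks caspases and Nec-1 blocks RIPK1, a kinase, so that LPS+zVAD and IFNβ+zVAD are conditions under which macrophages can die by necroptosis. The sample labels give LPS as 100 ng/mL and IFNβ as 1000 U/mL, and the study's methods state other doses. The cells were grown from marrow with M-CSF, the WT mice were C57BL/6 by the labels (C57BL6/J in the study's methods), and Ifnar1-/- cells lack the receptor throughout, not only at the time of treatment.

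Initiation begins when eIF4E binds the cap of an mRNA and joins the scaffold eIF4G and the helicase eIF4A, while the 4E-binding proteins compete with eIF4G for eIF4E. The small ribosomal subunit, held open by eIF1, eIF1A and eIF3, receives the initiator tRNA from eIF2 bound to GTP, and eIF2B recharges eIF2 with GTP after each round. In macrophages exposed to LPS or interferon, phosphorylation of eIF2 and of the 4E-binding proteins is known to set how much of each mRNA is translated, whereas the arrays here read mRNA alone.

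The sequences before the start sites of 4 members are shown. Eif4e and Eif4ebp2, a cap-binding protein and its inhibitor, were called in both genotypes, Eif2b4, a subunit of eIF2B, differed between the genotypes with LPS+zVAD, and Eif2s1, a subunit of eIF2, rose with IFNβ and holds the interferon-type core. Eif1a, Eif2b3, Eif4e3 and Eif6, also described at length, had no window. Each line gives the 250 bases that precede the start site, 5′ to 3′ on the strand of the gene, from RefSeq on GRCm38.p6. The capitals mark CACGTG (an E-box, the site of the MYC family) in Eif4e at chr3:138527018-138527267 on the plus strand, TGACG (the core of the site of ATF and CREB factors) in Eif4ebp2 at chr10:61452670-61452919 on the minus strand (the match is on the strand opposite to the gene, so the capitals read CGTCA), GAAANNGAA (a core shared by interferon-responsive elements) in Eif2s1 at chr12:78861822-78862071 on the plus strand, and TGACG in Eif2b4 at chr5:31193140-31193389 on the minus strand.
Eif4e: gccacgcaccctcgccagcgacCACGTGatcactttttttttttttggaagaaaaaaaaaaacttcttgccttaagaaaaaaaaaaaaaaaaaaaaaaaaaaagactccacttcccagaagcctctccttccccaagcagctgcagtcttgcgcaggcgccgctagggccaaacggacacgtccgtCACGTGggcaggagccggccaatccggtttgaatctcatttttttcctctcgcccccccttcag
Eif4ebp2: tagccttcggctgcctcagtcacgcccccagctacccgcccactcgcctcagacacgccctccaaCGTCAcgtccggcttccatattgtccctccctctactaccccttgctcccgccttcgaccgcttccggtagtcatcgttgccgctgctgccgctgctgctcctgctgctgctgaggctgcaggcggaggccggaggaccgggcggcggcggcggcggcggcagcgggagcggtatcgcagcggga
Eif2s1: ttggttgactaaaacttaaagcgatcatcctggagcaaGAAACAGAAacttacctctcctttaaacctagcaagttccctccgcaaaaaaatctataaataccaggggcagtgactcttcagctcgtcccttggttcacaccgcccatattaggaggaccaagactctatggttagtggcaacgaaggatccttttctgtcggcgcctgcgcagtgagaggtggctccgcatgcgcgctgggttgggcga
Eif2b4: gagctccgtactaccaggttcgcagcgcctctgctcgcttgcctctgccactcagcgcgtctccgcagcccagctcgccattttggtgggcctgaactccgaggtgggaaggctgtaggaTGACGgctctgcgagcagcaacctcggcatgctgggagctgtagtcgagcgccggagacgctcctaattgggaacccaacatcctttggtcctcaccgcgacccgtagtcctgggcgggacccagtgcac

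RefSeq windows of 300 bases, 250 before and 50 after the start, were matched by symbol for 38 of the 50 members, in 50 windows. Each motif was searched in both strands. CACGTG was in 24% of the member windows and in 7.15% of all 32851 windows, TGACG in 50% and 20.8%, and GAAANNGAA in 6% and 8.56%. The E-box was found in 10 members (Eif1b, Eif3a, Eif3f, Eif3k, Eif4a1, Eif4e, Eif4g1, Eif4h, Eif5a and Eif5a2), and the second of the pair in Eif4e overlaps a TGACG on the opposite strand. GAAANNGAA was found in Eif2s1, Eif2s3x and Eif3a. Of these, only Eif2s1 was called higher with IFNβ in WT. The log2 fold changes of Eif2s3x and Eif3a were -0.49 and -0.48, neither called in the limma fit of all groups. A second probe of Eif2s3x gave 0.41. Whether the motif bears on the response was not tested. These are matches of letters in a fixed window. The members with no window were Eif1a, Eif2b3, Eif3e, Eif3h, Eif3i, Eif3j2, Eif4e1b, Eif4e3, Eif4ebp1, Eif4ebp3, Eif4g2 and Eif6.

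All values are log2 intensities after quantile normalization, with 1 probe per gene, the brightest. A log2 difference of 1 is a 2-fold difference, and levels are compared only within a gene. All 16 groups entered a single limma fit, with p-values adjusted by the Benjamini-Hochberg method over all genes tested, and genes are called higher or lower where the adjusted p was under 0.05. Nothing in the labels says that the arrays of a group come from separate mice or cultures, so the p-values measure the spread between these arrays, which may be technical. Because there are 2 arrays in each group, each call was also refitted with each array of its comparison left out in turn, and the number of those fits that kept the call is given for calls that were lost in any. A call is said to hold throughout when it also passed under every other scaling, background correction, filter and table tried, leaving aside fits of only the arrays compared, which have few degrees of freedom. Where arrays are said not to overlap, this describes their levels and adds no support to a call, which comes from the same arrays. These are bulk samples, in which fewer cells of a type and less RNA per cell cannot be told apart.

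The macrophage genes Csf1r (17.68 to 18.47 log2), Cd68 (16.77 to 18.16) and Lyz2 (17 to 18) were high on all 32 arrays. Of the markers of other cells, Pdgfra was above background on 0 arrays and Cd3d on 4, while Elane (median 12.59), S100a8 (13.45) and Cd3e (10.62) were above background on all 32. The probe for Ifnar1 read 14.22 and 14.19 in untreated WT and 11.89 and 11.87 in untreated Ifnar1-/- BMDMs, and its place relative to the deletion is not known. With LPS+zVAD it read 12.38 and 11.18 in WT and 11.6 and 11.72 in Ifnar1-/-, so it did not separate the genotypes there. On the WT IFNβ+zVAD+Nec-1 arrays it read 9.02 and 12.73. The 2 arrays of Ifnar1-/- LPS+zVAD+Nec-1 differed from each other by a standard deviation of 0.76 log2 per gene, where the other groups ranged from 0.31 to 0.56. On the array labelled replicate 2, Tnf read 10.00 against 15.92 on replicate 1, Il6 4.94 against 14.26, and Eif4e 11.34 against 12.85. WT IFNβ+zVAD+Nec-1 replicate 1 read 6.5 for Eif4g2 against 13.75 on replicate 2, and 7.57 for Eif2b1 against 11.24. Most calls that appear or are lost when either of these 2 groups is left out are given with Eif2b1 and Eif4g2 and, for the other members, after the last factors.

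With LPS, 11 of the 49 members were called higher and 10 lower in WT BMDMs, where 16.3% and 24.8% of all genes were. With IFNβ, 8 were higher and 11 lower, against 13.7% and 21.6% of all genes. LPS+zVAD raised 11 and lowered 9, against 18.3% and 32.7%, and IFNβ+zVAD raised 10 and lowered 10, against 14.4% and 23.1%. As shares of the 49, the members called higher were 22.4%, 16.3%, 22.4% and 20.4% in this order and those called lower 20.4%, 22.4%, 18.4% and 20.4%. The 4 comparisons share the 2 untreated WT arrays. Without WT untreated replicate 2 the counts of called members went from 21 to 13 with LPS, from 19 to 10 with IFNβ, from 20 to 13 with LPS+zVAD and from 20 to 10 with IFNβ+zVAD. For IFNβ+zVAD the count was also 13 without WT IFNβ+zVAD replicate 1 and 11 without replicate 2. With the slide as a replicate block, which pairs the arrays of a slide, 30 members were called with IFNβ. The shares of all genes called with the block or with an array left out are not given, here or below. Those counts have no background to be read against, and a fall in them is not read as a trait of the members. zVAD alone called 0 members, where 0.00624% of all genes were called. At an unadjusted p under 0.05 by limma there were 6 of the 49 members and 901 of the 16037 genes.

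In cells of the Ifnar1-/- genotype, LPS raised 12 members and lowered 4, against 10.9% and 13.9% of all genes, and LPS+zVAD raised 6 and lowered 4, against 11% and 17.2%. The LPS count of 16 fell to between 5 and 7 without any of its arrays: 5 without untreated replicate 1, 7 without untreated replicate 2, 7 without LPS replicate 1 and 6 without LPS replicate 2. With the slide as a block, 22 members were called with LPS+zVAD. The shares of all genes called in these fits are not given. IFNβ, zVAD and IFNβ+zVAD called 0 members each by limma in these cells, where 0%, 0% and 0.00624% of all genes were called. At an unadjusted p under 0.05 by limma there were 0, 0 and 1 members, against 253, 61 and 585 of the 16037 genes.

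**Figure D1:**
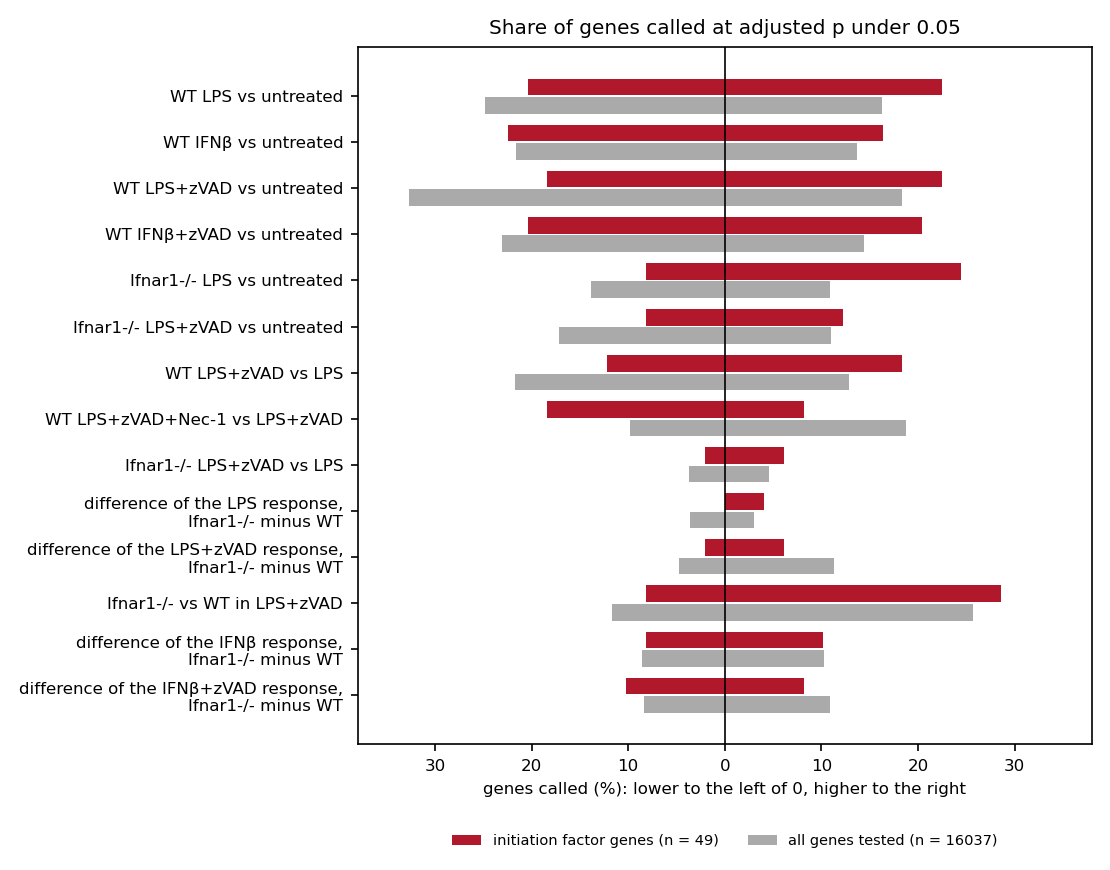
Percent of the 49 measured initiation factor genes (red bars) and percent of all 16037 measured genes (grey bars) that limma called higher (to the right of 0) or lower (to the left) in each comparison. With LPS in Ifnar1-/- BMDMs 24.5% of the members and 10.9% of all genes were called higher, and the comparisons in which no member was called are left out of the plot. The split between higher and lower moved with the scaling, as given in the text.

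The balance between rises and falls moved with the scaling of the arrays. With scaling of the arrays by their 75th percentile instead of by quantiles, the change of the median gene moved on the log2 scale by 0.15 with LPS, 0.15 with IFNβ, 0.28 with LPS+zVAD and 0.16 with IFNβ+zVAD in WT BMDMs. The members' median was 0.06 with LPS in WT under quantile normalization, where that of all genes was -0.08, and 0.45 against 0.08 under the 75th percentile. With LPS+zVAD it was -0.05 against -0.15, and 0.54 against 0.12. With IFNβ it was -0.32 against -0.17, and -0.03 against -0.02. The higher and lower members became 17 and 2 with LPS, 8 and 4 with IFNβ, 19 and 3 with LPS+zVAD, and 10 and 3 with IFNβ+zVAD. In the Ifnar1-/- genotype they became 15 and 1 with LPS and 13 and 1 with LPS+zVAD. The shares of all genes called under this scaling are not given, here or below. These counts therefore have no background to be read against and are not read as a trait of the members. The falls of eIF3 subunits are given below with both values.

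**Figure D2:**
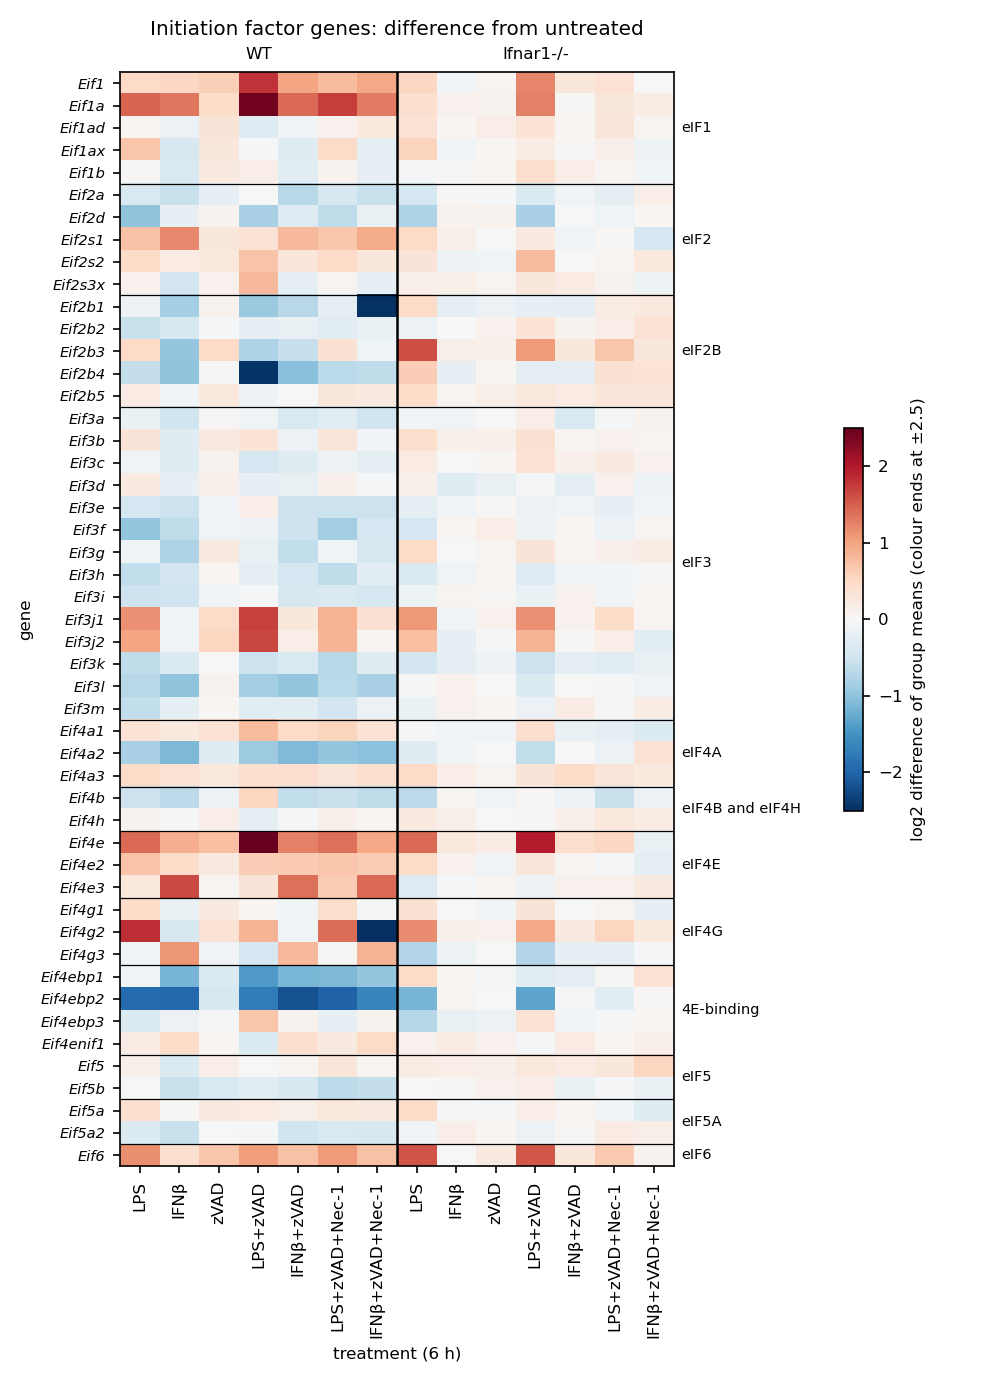
Difference in mean log2 level (quantile-normalized, n = 2 arrays a group) from untreated cells of the same genotype for each of the 49 measured members (rows, by factor) and treatment (columns), red for higher and blue for lower, with colours ending at ±2.5. Eif4ebp2 was blue in every WT column with LPS or IFNβ, the Ifnar1-/- column for IFNβ was pale throughout, and pale blue cells of eIF3 turned or faded under 75th percentile scaling.

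The 4E-binding proteins come first. Eif4ebp2, a repressor that holds eIF4E away from eIF4G, was called lower in 4 comparisons with untreated cells in WT and in 2 in Ifnar1-/-. Its log2 level was 12.75 and 12.62 on the 2 untreated WT arrays, 10.42 and 11.08 with LPS, 10.57 and 10.86 with IFNβ, 10.94 and 10.92 with LPS+zVAD, and 10.48 and 10.55 with IFNβ+zVAD. All 8 treated arrays lay more than 1 log2 below both untreated ones. The log2 fold change in WT was -1.93 with LPS (SE 0.24, limma adjusted p = 4.95e-06), -1.97 with IFNβ (adjusted p = 3.87e-06), -1.76 with LPS+zVAD (adjusted p = 5.7e-06) and -2.17 with IFNβ+zVAD (adjusted p = 1.17e-06). These 4 calls held in every fit with an array left out and in every other processing tried.

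Among Ifnar1-/- arrays, Eif4ebp2 read 13.02 and 12.75 untreated, 11.84 and 11.60 with LPS and 11.61 and 11.51 with LPS+zVAD, so these groups did not overlap either. It fell by 1.16 on the log2 scale with LPS (adjusted p = 0.00158 in limma) and by 1.32 with LPS+zVAD (adjusted p = 0.00051). With IFNβ it read 13.11 and 12.76, and with IFNβ+zVAD 12.85 and 12.84, with 1 array above both untreated ones and the other 3 between them. The change with IFNβ was 0.06 log2 (95% interval -0.44 to 0.55). The difference between the genotypes in the response was tested by an interaction term. It was 2.03 log2 for IFNβ (SE 0.34, limma adjusted p = 0.000328) and 2.14 for IFNβ+zVAD (adjusted p = 0.000225), and both held without any 1 of their 8 arrays. With zVAD alone Eif4ebp2 read 12.58 and 11.97 in WT and 12.88 and 12.90 in Ifnar1-/-. With Nec-1 it read 10.60 and 10.70 (LPS+zVAD) and 10.97 and 11.09 (IFNβ+zVAD) in WT, and 12.24 and 12.94 and, with IFNβ+zVAD, 12.94 and 12.88 in Ifnar1-/-. For LPS the difference in the response was 0.77 (95% interval 0.07 to 1.48, adjusted p = 0.205) and for LPS+zVAD 0.43 (95% interval -0.27 to 1.14, adjusted p = 0.452).

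The other 4E-binding members moved less. Eif4ebp1, the best-known target of mTORC1 among them, read 14.38 and 14.36 in untreated WT, 13.77 and 14.78 with LPS, 12.65 and 13.74 with IFNβ, 13.31 and 12.60 with LPS+zVAD, and 12.61 and 13.85 with IFNβ+zVAD. All 6 arrays of the last 3 groups were below the untreated ones. Its fall was 1.17 log2 with IFNβ (SE 0.42, limma adjusted p = 0.0354), 1.41 with LPS+zVAD (adjusted p = 0.00798) and 1.14 with IFNβ+zVAD (adjusted p = 0.0385), kept in 1, 3 and 1 of 4 fits with an array left out. Under 75th percentile scaling the 3 values were -0.78, -1.03 and -0.74 and none was called. On its other WT arrays Eif4ebp1 lay between 12.94 and 14.18, and on the 16 Ifnar1-/- arrays between 13.39 and 14.40.

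Eif4ebp3, another 4E-binding repressor, read 11.71 and 11.63 in untreated WT, 11.37 and 11.29 with LPS and 12.10 and 12.63 with LPS+zVAD. It was highest with LPS+zVAD on both slides (log2 fold change 0.70, adjusted p = 0.0176 in limma, kept in 2 of 4 fits). In Ifnar1-/- it was 12.08 and 11.71 untreated, 11.15 and 11.21 with LPS (a fall of 0.71 log2, adjusted p = 0.0308, kept in 1 of 4 fits) and 12.16 and 12.34 with LPS+zVAD. Its other arrays lay between 11.43 and 11.87 in WT and between 11.46 and 12.25 in Ifnar1-/-. Eif4enif1, which carries eIF4E into the nucleus, was 10.75 and 10.64 in untreated WT and 11.09 and 11.21 with IFNβ, a rise of 0.45 log2 (adjusted p = 0.0437) that 0 of 4 fits kept. It read 10.84 and 10.91 with LPS, 10.44 and 10.27 with LPS+zVAD and 11 and 11.22 with IFNβ+zVAD in WT, and lay between 10.19 and 10.66 on the Ifnar1-/- arrays.

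**Figure D3:**
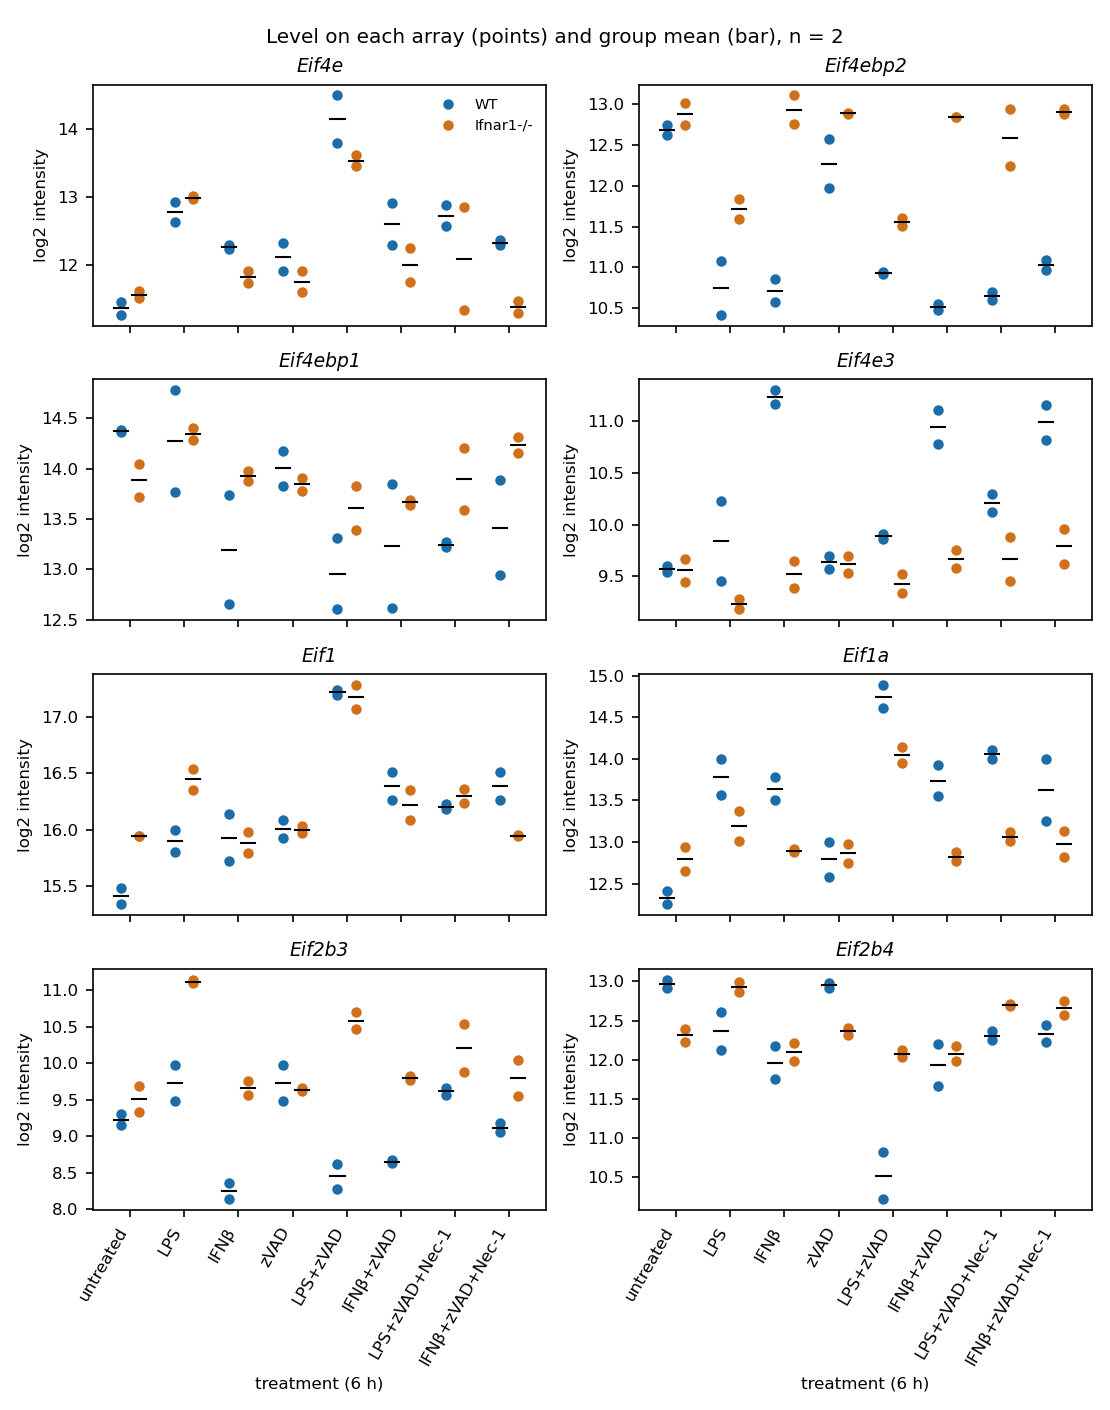
Log2 intensity (quantile-normalized) of 8 members, 1 point for each array over the 8 treatments, WT in blue and Ifnar1-/- in orange, with a bar at each group mean (n = 2). Eif4ebp2 lay between 10.42 and 11.09 on the WT arrays with LPS or IFNβ, alone or in combination, and at 11.51 or higher on every Ifnar1-/- array.

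Eif4e encodes the cap-binding protein itself. It read 11.46 and 11.27 in untreated WT, 12.63 and 12.93 with LPS, 12.24 and 12.29 with IFNβ, 13.80 and 14.50 with LPS+zVAD, and 12.30 and 12.92 with IFNβ+zVAD. Every one of these 8 treated arrays lay above both untreated ones, and the 2 LPS+zVAD arrays lay above all other arrays of the series. The log2 fold change was 1.42 with LPS (SE 0.34, limma adjusted p = 0.00273), 0.90 with IFNβ (adjusted p = 0.049), 2.79 with LPS+zVAD (adjusted p = 1.94e-06) and 1.25 with IFNβ+zVAD (adjusted p = 0.00781). The LPS and LPS+zVAD calls were kept in every fit with an array left out, that of IFNβ+zVAD in 2 of 4 and that of IFNβ in 0 of 4. Without the WT IFNβ+zVAD+Nec-1 pair the IFNβ call was lost (adjusted p = 0.0553). The other 2 probes of Eif4e gave 5.52 and 2.18 with LPS+zVAD in WT. With LPS in WT they gave -0.26 and 1.47, so the dimmer of the 2 went the other way.

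In Ifnar1-/- BMDMs Eif4e read 11.51 and 11.62 untreated, 13.02 and 12.97 with LPS and 13.62 and 13.46 with LPS+zVAD, again without overlap. It rose by 1.43 log2 (limma adjusted p = 0.00506) and by 1.97 (adjusted p = 0.000403). The genotypes' responses differed by 0.01 log2 for LPS (95% interval -1.01 to 1.03) and by -0.82 for LPS+zVAD (95% interval -1.84 to 0.20, adjusted p = 0.296). With IFNβ the Ifnar1-/- arrays read 11.92 and 11.74, a change of 0.26 log2 (95% interval -0.46 to 0.99).

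Of the other cap-binding genes, Eif4e3 followed IFNβ. It read 9.55 and 9.60 in untreated WT, 11.30 and 11.17 with IFNβ and 11.11 and 10.78 with IFNβ+zVAD, but 10.23 and 9.45 with LPS and 9.91 and 9.87 with LPS+zVAD. The 4 IFNβ arrays stood more than 1 log2 above untreated cells, and the rise was 1.66 log2 with IFNβ (limma adjusted p = 1.13e-05) and 1.37 with IFNβ+zVAD (adjusted p = 7.92e-05). In Ifnar1-/- BMDMs it read 9.39 and 9.65 with IFNβ against 9.45 and 9.67 untreated. The difference between genotypes was -1.70 log2 for IFNβ (SE 0.31, adjusted p = 0.000801) and -1.26 for IFNβ+zVAD (adjusted p = 0.00784), kept without any 1 of the 8 arrays.

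Eif4e2, a homologue of eIF4E that serves in translational repression, read 13.72 and 13.49 in untreated WT, 14.35 and 14.28 with LPS, 13.99 and 14.10 with IFNβ, 14.20 and 14.22 with LPS+zVAD and 14.24 and 14.28 with IFNβ+zVAD. All 8 treated arrays were above the untreated ones. It rose by 0.71 (limma adjusted p = 0.000375), 0.45 (adjusted p = 0.0156), 0.61 (adjusted p = 0.000953) and 0.65 log2 (adjusted p = 0.000903), with the IFNβ call kept in 2 of 4 fits and the rest in all 4. In Ifnar1-/- it rose with LPS by 0.48 (adjusted p = 0.0146, kept in 1 of 4 fits). The response to IFNβ+zVAD was smaller in Ifnar1-/- by 0.60 log2 (adjusted p = 0.0354, kept in 2 of 8 fits). Its other 2 probes gave -0.48 and 0.30 with LPS+zVAD, so the probes of this gene disagreed.

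The eIF1 group holds the small factors that scan for the start codon. Eif1, the gene of eIF1, read 15.48 and 15.34 in untreated WT, 16 and 15.80 with LPS, 15.72 and 16.14 with IFNβ, 17.19 and 17.24 with LPS+zVAD and 16.26 and 16.51 with IFNβ+zVAD. The LPS+zVAD arrays were the highest of the WT arrays. Eif1 rose by 0.49 with LPS (limma adjusted p = 0.0222, kept in 2 of 4 fits), 0.51 with IFNβ (adjusted p = 0.0189, kept in 2 of 4), 1.81 with LPS+zVAD (adjusted p = 5.49e-08) and 0.97 with IFNβ+zVAD (adjusted p = 0.00012). In Ifnar1-/- it read 15.94 on both untreated arrays, 16.54 and 16.35 with LPS and 17.28 and 17.07 with LPS+zVAD, and rose by 0.51 (adjusted p = 0.0281, kept in 0 of 4 fits) and 1.23 (adjusted p = 4.35e-05). The response to IFNβ+zVAD was 0.69 log2 smaller in Ifnar1-/- (adjusted p = 0.0407, kept in 2 of 8 fits).

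Eif1a, a gene of the eIF1A family, read 12.25 and 12.41 in untreated WT, 14 and 13.57 with LPS, 13.78 and 13.50 with IFNβ, 14.61 and 14.89 with LPS+zVAD and 13.93 and 13.55 with IFNβ+zVAD. Every treated array was at least 1 log2 above the untreated ones. Its rise was 1.46 (limma adjusted p = 8.2e-05), 1.31 (adjusted p = 0.00027), 2.42 (adjusted p = 1.32e-07) and 1.41 log2 (adjusted p = 0.000126), and the 4 calls held throughout. In Ifnar1-/- BMDMs it read 12.65 and 12.94 untreated, 13.01 and 13.37 with LPS, 12.91 and 12.88 with IFNβ, 13.95 and 14.14 with LPS+zVAD and 12.88 and 12.77 with IFNβ+zVAD. There only LPS+zVAD was called (1.25 log2, adjusted p = 0.000766), and with LPS the change was 0.40 (95% interval -0.10 to 0.90). The responses of Ifnar1-/- were smaller by 1.17 log2 for LPS+zVAD (adjusted p = 0.0218, kept in 4 of 8 fits), 1.21 for IFNβ (adjusted p = 0.0164, kept in 5 of 8) and 1.38 for IFNβ+zVAD (adjusted p = 0.00709, kept in 8 of 8), and for LPS by 1.06 without a call (adjusted p = 0.067, but 0.0247 with the slide as a block).

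Eif1ax, the X-linked gene of eIF1A, did not follow Eif1a. It read 13.49 and 13.38 in untreated WT, 13.92 and 14.33 with LPS, 13 and 13.07 with IFNβ and 13.44 and 13.32 with LPS+zVAD, so that both LPS arrays lay above the untreated ones and the LPS+zVAD arrays overlapped them. It rose with LPS by 0.69 in WT (limma adjusted p = 0.00311, kept in 3 of 4 fits) and by 0.55 in Ifnar1-/- (adjusted p = 0.0239, kept in 0 of 4). Eif1b (12.72 to 14.35 over the 32 arrays) and Eif1ad (12.80 to 13.87) were called in no comparison with untreated cells unless the slide was a block.

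eIF2 carries the initiator tRNA, and its α subunit, from Eif2s1, is the one that stress kinases phosphorylate. Eif2s1 read 12.82 and 12.98 in untreated WT, 13.52 and 13.77 with LPS, 14.36 and 13.87 with IFNβ, 13.20 and 13.32 with LPS+zVAD and 13.83 and 13.61 with IFNβ+zVAD. All 8 treated arrays lay above the untreated ones, and the IFNβ arrays were the highest. It rose by 1.21 with IFNβ (limma adjusted p = 0.000326), by 0.74 with LPS (adjusted p = 0.0117, kept in 2 of 4 fits) and by 0.82 with IFNβ+zVAD (adjusted p = 0.00693, kept in 2 of 4), and the change with LPS+zVAD was not called. A second probe went the other way with LPS+zVAD (-1.26 against 0.36). In Ifnar1-/- Eif2s1 read 13.76 and 13.43 with IFNβ against 13.52 and 13.40 untreated, and the response was 1.08 log2 smaller than in WT (adjusted p = 0.022, kept in 4 of 8 fits).

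Eif2s3x, the γ subunit, read 10.49 and 10.06 in untreated WT and 11.03 and 11.13 with LPS+zVAD, above every other WT array, and rose by 0.81 log2 (limma adjusted p = 0.00401, kept in 3 of 4 fits). A second probe of Eif2s3x gave 2.61 with LPS+zVAD, 1.11 with LPS and 0.41 with IFNβ in WT, where the probe used gave 0.81, 0.11 and -0.49. The 2 probes thus disagreed with IFNβ. Eif2s2, the β subunit, ranged from 13.99 to 15.31 over the 32 arrays and was called against untreated cells only in the alternative fits given further on. Eif2d, which can bring tRNA to the ribosome without eIF2, read 9.94 and 10.50 in untreated WT, 8.80 and 9.63 with LPS and 9.18 and 9.64 with LPS+zVAD. All 4 treated arrays were below the untreated ones, with a fall of 1.0 with LPS (adjusted p = 0.0124) and 0.81 with LPS+zVAD (adjusted p = 0.032), each kept in 2 of 4 fits. Eif2a, another tRNA-binding factor, read 11.36 and 11.45 in untreated WT and 10.70 and 10.73 with IFNβ+zVAD, a fall of 0.69 (adjusted p = 0.0286) that 0 of 4 fits kept.

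eIF2B is the exchange factor of eIF2, and its members diverged from each other and between the genotypes. Eif2b4, the δ subunit, read 13.02 and 12.92 in untreated WT, 12.13 and 12.61 with LPS, 12.17 and 11.75 with IFNβ, 10.82 and 10.22 with LPS+zVAD and 12.20 and 11.66 with IFNβ+zVAD. The LPS+zVAD arrays were the lowest of all 32. It fell by 2.45 log2 with LPS+zVAD (SE 0.21, limma adjusted p = 3.98e-08), 1.01 with IFNβ (adjusted p = 0.00114) and 1.04 with IFNβ+zVAD (adjusted p = 0.000831), which held throughout. The fall of 0.60 with LPS (adjusted p = 0.0309) was kept in 1 of 4 fits and was not called under 75th percentile scaling (-0.29).

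In Ifnar1-/- BMDMs Eif2b4 read 12.23 and 12.39 untreated, 12.87 and 12.99 with LPS and 12.03 and 12.12 with LPS+zVAD. With LPS it was thus above the untreated arrays, by 0.62 log2 (limma adjusted p = 0.0399), a call that 0 of 4 fits kept. The response to LPS+zVAD was 2.21 log2 higher than in WT (SE 0.30, adjusted p = 9.51e-05), without any 1 array too, and that to LPS 1.22 higher (adjusted p = 0.0187, kept in 4 of 8 fits, and 0.0723 under 75th percentile scaling).

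Eif2b3, the γ subunit, went opposite ways in the genotypes with LPS+zVAD. It read 9.15 and 9.30 in untreated WT, 9.47 and 9.97 with LPS, 8.14 and 8.36 with IFNβ, 8.62 and 8.28 with LPS+zVAD and 8.63 and 8.67 with IFNβ+zVAD. It read 9.33 and 9.69 in untreated Ifnar1-/-, 11.09 and 11.14 with LPS and 10.46 and 10.70 with LPS+zVAD, with no overlap. It fell in WT by 0.98 log2 with IFNβ (limma adjusted p = 0.00299) and by 0.77 with LPS+zVAD (adjusted p = 0.00933, kept in 2 of 4 fits). It rose in Ifnar1-/- by 1.60 with LPS (adjusted p = 0.000125) and by 1.07 with LPS+zVAD (adjusted p = 0.00218). The responses differed by 1.84 log2 for LPS+zVAD (adjusted p = 0.000902, kept in 8 of 8 fits) and by 1.12 for IFNβ (adjusted p = 0.0223, kept in 4 of 8), and by 1.11 for LPS (adjusted p = 0.0503, not called, but 0.0247 with the slide as a block).

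**Figure D4:**
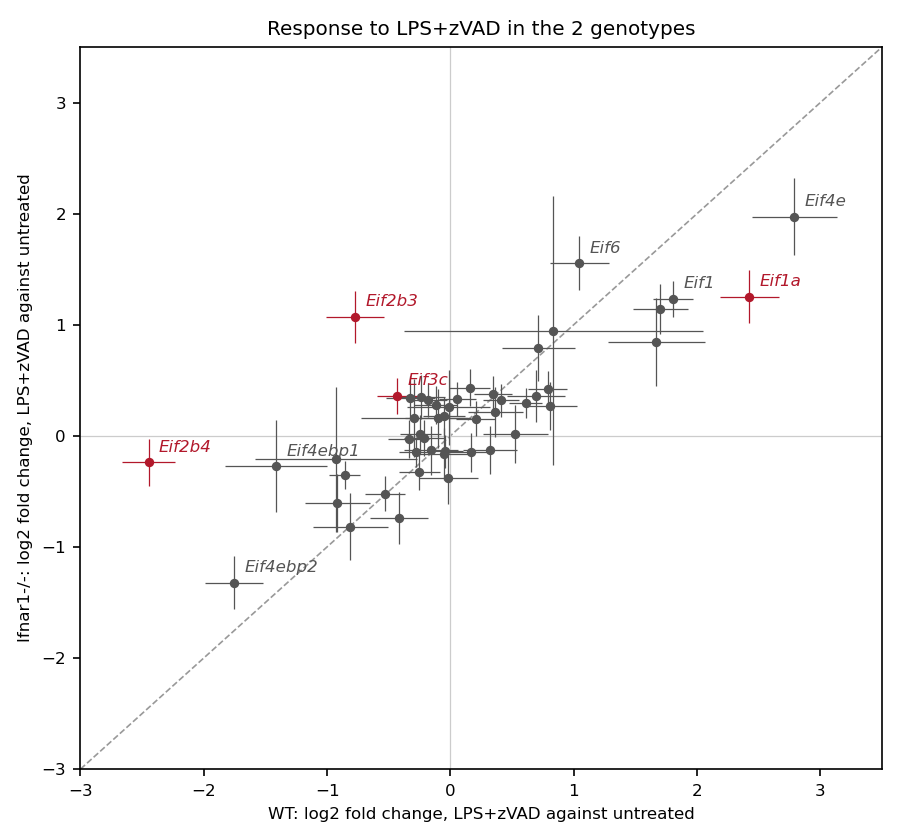
Log2 fold change with LPS+zVAD against untreated cells in WT (horizontal axis) and Ifnar1-/- BMDMs (vertical axis) under quantile normalization, 1 point for each of the 49 members with bars of 1 standard error, a dashed line at equal responses, and in red the members whose responses differed between genotypes in limma. Eif2b3 (-0.77 in WT, 1.07 in Ifnar1-/-) and Eif2b4 (-2.45 in WT) lay furthest above the dashed line, and the difference in Eif3c was not called under 75th percentile scaling.

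Eif2b2, the β subunit, read 14.55 and 14.50 in untreated WT and 13.82 and 14.14 with LPS, a fall of 0.55 (limma adjusted p = 0.0332) kept in 1 of 4 fits, whose direction turned under 75th percentile scaling (0.02). Eif2b5, the catalytic ε subunit, ranged from 10.88 to 12.14 over the 32 arrays and was not called against untreated cells unless the slide was a block. Eif2b1, the α subunit, read 12.00 and 11.76 in untreated WT, 11.27 and 10.80 with IFNβ and 11.14 and 10.77 with LPS+zVAD. The pair of WT IFNβ+zVAD+Nec-1 arrays differed widely for this gene. Without that pair, a choice made after seeing the data, Eif2b1 was lower by 0.85 log2 with IFNβ (adjusted p = 0.017), by 0.93 with LPS+zVAD (adjusted p = 0.00626) and by 0.69 with IFNβ+zVAD (adjusted p = 0.0453), while with the pair no call was made. Also without that pair, zVAD added to LPS in WT changed Eif2b1 by -0.80 (limma adjusted p = 0.0236). In LPS+zVAD it was then higher in Ifnar1-/- than in WT (0.87, adjusted p = 0.0135).

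eIF3 is the largest factor, a scaffold on the small subunit, and 14 of its genes were measured. Under quantile normalization 5 of 14 were called lower in WT with LPS, 5 with IFNβ, 3 with LPS+zVAD and 4 with IFNβ+zVAD, where 24.8%, 21.6%, 32.7% and 23.1% of all genes were, and 8, 9, 9 and 10 of the 14 were not called. With LPS these were Eif3f (-0.96), Eif3l (-0.71), Eif3k (-0.64), Eif3m (-0.61) and Eif3h (-0.61), with limma adjusted p between 2e-04 and 0.00615. With 75th percentile scaling the 5 values were -0.41, -0.08, -0.08, -0.03 and -0.08, and none was called. With IFNβ they were Eif3l (-1.0), Eif3g (-0.76), Eif3f (-0.64), Eif3e (-0.54) and Eif3h (-0.46), which became -0.46, -0.22, -0.14, -0.30 and, with its direction turned, 0.02, none of them called. The falls of Eif3f and Eif3h with IFNβ were kept in 0 of 4 fits with an array left out and that of Eif3e in 2.

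Eif3l, a peripheral subunit, read 15.51 on both untreated WT arrays, 14.76 and 14.86 with LPS, 14.54 and 14.49 with IFNβ, 14.75 and 14.57 with LPS+zVAD and 14.55 and 14.49 with IFNβ+zVAD. All 8 treated arrays were below the untreated ones, and the fall was 1.0 with IFNβ (SE 0.13, limma adjusted p = 6.49e-06), 0.99 with IFNβ+zVAD (adjusted p = 7.07e-06), 0.86 with LPS+zVAD (adjusted p = 1.48e-05) and 0.71 with LPS. Under 75th percentile scaling the 4 values were -0.46, -0.44, -0.11 and -0.08 and none was called. In Ifnar1-/- it read 15.65 and 15.59 untreated, 15.78 and 15.68 with IFNβ, and 15.25 and 15.28 with LPS+zVAD. The response was 1.11 log2 higher in Ifnar1-/- for IFNβ (adjusted p = 0.000246), 0.99 for IFNβ+zVAD (adjusted p = 0.000733) and 0.72 for LPS (adjusted p = 0.0182, kept in 2 of 8 fits), while these differences were 0.59, 0.42 and 0.45 and not called under 75th percentile scaling. The fall of 0.35 with LPS+zVAD in Ifnar1-/- (adjusted p = 0.0431) was kept in 0 of 4 fits and was 0.02, in the other direction, under that scaling.

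Among the remaining falls of eIF3 subunits, those with LPS+zVAD in WT were Eif3k (-0.53, adjusted p = 0.00891 in limma) and Eif3c (-0.43, adjusted p = 0.0303), kept in 2 and 1 of 4 fits and both turned by 75th percentile scaling (0.31 and 0.40). Eif3g (-0.61), Eif3e (-0.51) and Eif3h (-0.44) fell with IFNβ+zVAD, with -0.06, -0.28 and, turned, 0.08 under that scaling and no call, and were kept in 4, 1 and 0 of 4 fits. In Ifnar1-/- Eif3k fell by 0.44 with LPS and 0.52 with LPS+zVAD (adjusted p = 0.0486 and 0.0198, each kept in 0 of 4 fits), with -0.09 and -0.14 and no call under that scaling. Eif3g, which was lower with IFNβ in WT, rose in Ifnar1-/- with LPS by 0.49 (adjusted p = 0.0231, kept in 2 of 4 fits), as did Eif3b, a core subunit, by 0.44 (adjusted p = 0.047, kept in 0 of 4, and 0.0527 without the WT IFNβ+zVAD+Nec-1 pair). The responses of Eif3g were higher in Ifnar1-/- by 0.78 for IFNβ and 0.69 for IFNβ+zVAD (adjusted p = 0.0159 and 0.0313, kept in 4 and 2 of 8 fits), and that of Eif3c by 0.80 for LPS+zVAD (adjusted p = 0.0217, kept in 3 of 8), with none of the 3 called under 75th percentile scaling. Without the slide as a block, Eif3a, Eif3d and Eif3i were called in no comparison with untreated cells.

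Eif3j1 and Eif3j2 went the other way. They are near-identical copies for the loosely bound j subunit, so their probes may share signal. Eif3j1 read 11.09 and 10.90 in untreated WT, 12.21 and 12.06 with LPS, 10.73 and 11.06 with IFNβ and 12.54 and 12.85 with LPS+zVAD, and in Ifnar1-/- 11.20 and 11.16 untreated, 12.33 and 12.22 with LPS and 12.40 and 12.26 with LPS+zVAD. It was high on each array with LPS or LPS+zVAD and overlapped untreated cells with IFNβ. The rise was 1.14 with LPS (limma adjusted p = 0.000464) and 1.70 with LPS+zVAD in WT (adjusted p = 4.01e-06), and 1.09 (adjusted p = 0.00161) and 1.14 (adjusted p = 0.00101) in Ifnar1-/-. A second probe of Eif3j1 gave -1.45 with LPS+zVAD, so the direction belongs to the brighter probe. Eif3j2 read 10.60 and 10.13 in untreated WT and 11.89 and 12.19 with LPS+zVAD, and rose by 1.67 (adjusted p = 0.00146).

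eIF4A is the helicase that unwinds leader sequences. Eif4a1, its main gene, read 15.86 and 15.62 in untreated WT and 16.52 and 16.54 with LPS+zVAD, and rose by 0.79 (limma adjusted p = 0.00039), while the rise of 0.47 with IFNβ+zVAD (adjusted p = 0.0256) was kept in 2 of 4 fits. Eif4a2, its paralogue, read 13.25 and 13.86 in untreated WT, 12.47 and 13 with LPS, 12.22 and 12.65 with IFNβ, 12.43 and 12.85 with LPS+zVAD and 12.13 and 12.77 with IFNβ+zVAD. The 8 treated arrays were below both untreated ones, and the log2 fold changes were -0.82 (adjusted p = 0.0184), -1.12 (adjusted p = 0.00274), -0.92 (adjusted p = 0.00704) and -1.1 (adjusted p = 0.00287). None was called under 75th percentile scaling, where they were -0.42, -0.85, -0.60 and -0.83, and 2 or 3 of 4 fits with an array left out kept each. The IFNβ+zVAD response of Eif4a2 was 1.1 log2 higher in Ifnar1-/- (adjusted p = 0.0472, kept in 2 of 8 fits).

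Eif4a3, a helicase of the exon junction complex, read 11.63 and 11.51 in untreated WT, 12.11 and 11.99 with LPS and 11.80 and 12.15 with LPS+zVAD. It rose by 0.48 with LPS (limma adjusted p = 0.0143) and 0.41 with LPS+zVAD (adjusted p = 0.0277), each kept in 2 of 4 fits, by 0.42 with IFNβ+zVAD (adjusted p = 0.0341, kept in 0 of 4) and by 0.49 with LPS in Ifnar1-/- (adjusted p = 0.02, kept in 1 of 4). The helicase partners Eif4b (11.64 to 13.44 over the 32 arrays) and Eif4h (15.39 to 15.97) were not called against untreated cells in the fit of all arrays without a block, and Eif4b was in the alternative fits given further on.

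In the eIF4G group, Eif4g3, a scaffold that joins eIF4E to the ribosome, read 12.72 and 12.55 in untreated WT, 13.61 and 13.89 with IFNβ, 13.41 and 13.50 with IFNβ+zVAD, 12.54 and 12.58 with LPS and 12.39 and 12.04 with LPS+zVAD. Of these groups only the arrays with IFNβ or IFNβ+zVAD stood above both untreated ones, by 1.11 log2 (limma adjusted p = 0.00109) and, with zVAD, 0.82 (adjusted p = 0.00978, kept in 2 of 4 fits). In Ifnar1-/- it read 12.35 and 12.29 untreated, 12.12 and 12.26 with IFNβ, 11.70 and 11.48 with LPS and 11.52 and 11.64 with LPS+zVAD. There it fell by 0.73 and 0.74 with LPS and LPS+zVAD (adjusted p = 0.028 and 0.0241), each kept in 0 of 4 fits and neither called under 75th percentile scaling. The responses to IFNβ and IFNβ+zVAD were 1.24 and 1.02 log2 smaller in Ifnar1-/- (adjusted p = 0.0131 and 0.0382), kept in 6 and 0 of 8 fits. Eif4g1, the main scaffold, read 14.09 and 13.86 in untreated WT and 14.48 and 14.41 with LPS, a rise of 0.46 (adjusted p = 0.0187, kept in 2 of 4 fits).

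Eif4g2, a scaffold without an eIF4E site that serves cap-independent initiation, was high on every array with LPS alone but was not called in the fit of all arrays, which holds the discordant WT IFNβ+zVAD+Nec-1 pair. It read 13.71 and 13.56 in untreated WT, 15.57 and 15.37 with LPS, 13.06 and 13.39 with IFNβ and 14.60 and 14.33 with LPS+zVAD, and in Ifnar1-/- 14.03 and 13.83 untreated, 15.03 and 15.21 with LPS and 14.80 and 14.96 with LPS+zVAD. LPS arrays did not overlap untreated ones in either genotype. Without that pair, a choice made after seeing the data, Eif4g2 was called higher with LPS in WT by 1.84 (limma adjusted p = 6.34e-06) and in Ifnar1-/- by 1.19 (adjusted p = 0.000977), and with LPS+zVAD by 0.84 (adjusted p = 0.0043) and 0.95 (adjusted p = 0.0042).

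Of the last factors, Eif6, which keeps the large ribosomal subunit from joining too early, rose in both genotypes with LPS. It read 13.71 and 13.49 in untreated WT, 14.91 and 14.64 with LPS, 13.96 and 14.05 with IFNβ, 14.58 and 14.71 with LPS+zVAD and 14.32 and 14.36 with IFNβ+zVAD, and in Ifnar1-/- 13.45 and 13.88 untreated, 15.18 and 15.27 with LPS and 15.05 and 15.38 with LPS+zVAD. No LPS array overlapped an untreated one, and the rise was 1.17 (limma adjusted p = 0.000661) and 1.05 (adjusted p = 0.00119) in WT and 1.56 (adjusted p = 0.000175) and 1.56 (adjusted p = 0.000151) in Ifnar1-/-, and the 4 calls held throughout. The rise of 0.74 with IFNβ+zVAD in WT (adjusted p = 0.0202) was kept in 1 of 4 fits.

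Eif5a, which helps ribosomes over hard stretches, read 14.29 and 14.01 in untreated WT, 14.72 and 14.41 with LPS, 15.46 and 15.52 in untreated Ifnar1-/- and 15.96 and 15.95 with LPS. It rose with LPS by 0.41 (limma adjusted p = 0.0454, kept in 2 of 4 fits) and 0.46 (adjusted p = 0.0409, kept in 0 of 4). The Ifnar1-/- arrays stood above the WT arrays in every treatment, and each genotype lies on slides of its own, so genotype and slide cannot be told apart. Eif5a2, its paralogue, read 10.40 and 10.36 in untreated WT and 9.85 and 9.79 with IFNβ, a fall of 0.56 (adjusted p = 0.00569) that held throughout, with 0.49 for IFNβ+zVAD (adjusted p = 0.0118, kept in 2 of 4). Its IFNβ response was 0.72 log2 higher in Ifnar1-/- (adjusted p = 0.0187, kept in 4 of 8 fits). Eif5, the GTPase activator of eIF2 (13.25 to 14.74 over the 32 arrays), was not called. Eif5b, which joins the subunits, was read by a dim probe (4.45 to 6.56 log2, above background on 29 of 32 arrays) with 1 untreated WT spot left out as an outlier, and was not called against untreated cells.

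The slide paired the arrays, and with it as a replicate block further members were called against untreated cells, each with the same log2 change. Eif4b was called in 5 comparisons: lower in WT with LPS (-0.53, limma adjusted p = 0.00476), IFNβ (-0.65, adjusted p = 0.00117) and IFNβ+zVAD (-0.62, adjusted p = 0.00167), higher with LPS+zVAD (0.53, adjusted p = 0.0038), and lower with LPS in Ifnar1-/- (-0.65, adjusted p = 0.00174). Eif3i was lower in WT with LPS (-0.52, adjusted p = 0.0017), IFNβ (-0.50, adjusted p = 0.00253) and IFNβ+zVAD (-0.40, adjusted p = 0.0113). Eif2s2 was higher with LPS+zVAD in WT (0.71, adjusted p = 0.0111) and Ifnar1-/- (0.79, adjusted p = 0.00936). A second probe of Eif2s2 gave -0.56 in WT and 0.31 in Ifnar1-/- with LPS+zVAD, so its probes disagreed in WT. Eif1ad was lower with LPS+zVAD in WT (-0.32, adjusted p = 0.023) and higher in Ifnar1-/- with LPS (0.36, adjusted p = 0.022) and LPS+zVAD (0.34, adjusted p = 0.0272). Eif1b was lower with IFNβ in WT (-0.40, adjusted p = 0.00906) and higher with LPS+zVAD in Ifnar1-/- (0.43, adjusted p = 0.00637). Eif2b5 was higher with LPS in Ifnar1-/- (0.46, adjusted p = 0.00412) and Eif3a lower with IFNβ in WT (-0.48, adjusted p = 0.0314).

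The block also called, in WT, Eif3b, Eif3e, Eif3j2, Eif4a1 and Eif5a2 with LPS, Eif1ax, Eif2a, Eif2b2, Eif2s3x, Eif3b, Eif3k and Eif4a3 with IFNβ, Eif3b, Eif3m and Eif4enif1 with LPS+zVAD, and Eif2b3, Eif3f, Eif3k, Eif3m and Eif4enif1 with IFNβ+zVAD. In Ifnar1-/- it called Eif2d, Eif3f, Eif3h, Eif3j2 and Eif4g1 with LPS, and Eif2d, Eif3b, Eif3g, Eif3h, Eif3j2, Eif4a1, Eif4a2, Eif4e2 and Eif4g1 with LPS+zVAD. The widest of these changes was that of Eif3j2 with LPS in WT (0.99, limma adjusted p = 0.00143), and Eif2d was lower in Ifnar1-/- by 0.77 with LPS (adjusted p = 0.000539) and by 0.82 with LPS+zVAD (adjusted p = 0.000299).

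Leaving out the discordant Ifnar1-/- LPS+zVAD+Nec-1 pair, a choice made after seeing the data, called further members too. In WT these were Eif3e (limma adjusted p = 0.0285), Eif3j2 (0.0234) and Eif5a2 (0.0476) with LPS, Eif1ax (0.044), Eif2a (0.03) and Eif4b (0.0223) with IFNβ, Eif4b (0.0462) and Eif4g3 (0.0494) with LPS+zVAD, and Eif2b3 (0.034), Eif3f (0.0454), Eif4b (0.0282) and Eif4enif1 (0.0422) with IFNβ+zVAD. In Ifnar1-/- they were Eif4b (0.0292) with LPS and Eif2d (0.0444) and Eif4a1 (0.05 after rounding) with LPS+zVAD. Without the WT IFNβ+zVAD+Nec-1 pair Eif2s2 was called with LPS+zVAD in WT (adjusted p = 0.0293) and Ifnar1-/- (adjusted p = 0.0299). With zVAD added to LPS, Eif3d (0.0462) and Eif3j1 (0.0163) were called in WT and Eif3l (0.042) in Ifnar1-/- without the Ifnar1-/- pair.

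Of the genotype comparisons, leaving out the Ifnar1-/- pair called Eif6 in LPS+zVAD (0.57 log2 higher in Ifnar1-/-, limma adjusted p = 0.0201). It also called the differences in response of Eif2b3 for LPS (1.11, adjusted p = 0.0228) and IFNβ+zVAD (0.86, adjusted p = 0.0417), Eif3l for LPS+zVAD (adjusted p = 0.035), Eif4a2 for IFNβ (adjusted p = 0.0445), and Eif2s1 and Eif4a1 for IFNβ+zVAD (adjusted p = 0.0258 and 0.0458). The difference of Eif1a for LPS was called without the WT IFNβ+zVAD+Nec-1 pair (adjusted p = 0.0372) and without both pairs (adjusted p = 0.0315). Leaving out both pairs also called Eif3k with IFNβ+zVAD in WT (adjusted p = 0.0492) and the difference of Eif5a2 for IFNβ+zVAD (adjusted p = 0.0479).

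The difference between the genotypes in the response was tested for 4 treatments. Each count from the fit of all arrays without a block is read against the share of all genes. For LPS 2 members were higher in Ifnar1-/- minus WT and 0 lower, against 3.03% and 3.6% of all genes. For LPS+zVAD 3 were higher and 1 lower, against 11.3% and 4.78%. For IFNβ 5 were higher and 4 lower, against 10.3% and 8.54%, and for IFNβ+zVAD 4 and 5, against 10.9% and 8.39%. The last 2 comparisons were added after the data had been seen. With the slide as a block the 4 counts were 6, 9, 18 and 18, of which 4, 5, 9 and 9 were calls not made without it. The LPS count was 0 without WT untreated replicate 1, Ifnar1-/- untreated replicate 1, WT LPS replicate 1 or Ifnar1-/- LPS replicate 2, 1 without untreated replicate 2 of either genotype, and 6 without WT LPS replicate 2. The LPS+zVAD count was 2 without WT untreated replicate 1 or WT LPS+zVAD replicate 2. The IFNβ count was 5 without Ifnar1-/- untreated replicate 1. The IFNβ+zVAD count was 4 without WT untreated replicate 2 or Ifnar1-/- untreated replicate 1, and 5 without Ifnar1-/- untreated replicate 2 or replicate 2 of either IFNβ+zVAD group.

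Compared directly in LPS+zVAD, Ifnar1-/- BMDMs had 14 members higher and 4 lower than WT, against 25.7% and 11.7% of all genes. On these arrays genotype and slide cannot be told apart, and the count fell from 18 to 11 without Ifnar1-/- LPS+zVAD replicate 2. The widest gaps were in Eif2b3 (2.13 log2, limma adjusted p = 1.41e-06), Eif2b4 (1.55, adjusted p = 1.64e-05), Eif5a (1.29, adjusted p = 5.23e-06), Eif5b (1.11, adjusted p = 0.0188, but 0.237 without WT LPS+zVAD replicate 1) and Eif1b (0.96, adjusted p = 0.000172). Eif2b5 (0.86), Eif3c (0.83), Eif3b (0.82), Eif1ad (0.76), Eif4g1 (0.73), Eif1ax (0.69), Eif4ebp2 (0.63), Eif3l (0.61) and Eif3g (0.50) were the other higher members. The lower ones were Eif1a (-0.70), Eif4b (-0.70), Eif3e (-0.66) and Eif4g3 (-0.64). With an array left out, Eif4b and Eif4ebp2 were kept in 0 of 4 fits, Eif1a and Eif4g3 in 1, Eif1ad, Eif3g and Eif5b in 2, Eif3e in 3 and the other 10 in all 4. Under 75th percentile scaling 8 were higher and 7 lower, Eif3g was -0.02, and the median of all genes moved by -0.27.

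Adding zVAD to LPS moved 15 members in WT BMDMs, 9 higher and 6 lower, against 12.9% and 21.7% of all genes. Eif4e rose by a further 1.37 log2 (limma adjusted p = 0.0042, kept in 3 of 4 fits), Eif1 by 1.32 (adjusted p = 6.3e-06), Eif4b, a cofactor of eIF4A, by 1.05 (adjusted p = 0.00399), Eif4ebp3 by 1.04 (adjusted p = 0.00177) and Eif1a by 0.97 (adjusted p = 0.00351, kept in 2 of 4). Eif2b4 fell by 1.85 (adjusted p = 3.32e-06) and Eif2b3 by 1.27 (adjusted p = 0.000328). Eif1, Eif2b3, Eif2b4, Eif4b and Eif4ebp3 were the calls that held throughout. Eif3f (0.81), Eif2s3x (0.70), Eif3e (0.60) and Eif4a1 (0.43) were also higher, and Eif4ebp1 (-1.32), Eif1ax (-0.74), Eif4enif1 (-0.52) and Eif4g1 (-0.41) lower. Of these, Eif4a1 was kept in 0 of 4 fits, Eif4enif1 and Eif4g1 in 1, Eif2s3x, Eif3e, Eif3f and Eif4ebp1 in 2 and Eif1ax in 3. Eif4b read 12.42 and 12.27 with LPS and 13.36 and 13.44 with LPS+zVAD, the highest of all 32 arrays. The count was 6 without WT LPS replicate 2, 6 without WT LPS+zVAD replicate 2 and 25 with the slide as a block.

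In Ifnar1-/- BMDMs the same comparison called 4 members, 3 higher and 1 lower, against 4.58% and 3.67% of all genes. Eif4ebp3 rose by 1.07 (limma adjusted p = 0.00685), Eif1a by 0.85 (adjusted p = 0.0315) and Eif1 by 0.73 (adjusted p = 0.00841), and Eif2b4 fell by 0.86 (adjusted p = 0.0164). The count was 1 without any 1 of the 4 arrays (LPS replicates 1 and 2, LPS+zVAD replicates 1 and 2), with Eif1 and Eif4ebp3 each kept in 2 of the 4 fits and Eif1a and Eif2b4 in 0, and 10 with the slide as a block. Adding zVAD to IFNβ in WT called 0 members and 0% of all genes. At an unadjusted p under 0.05 by limma there were 1 member and 637 of the 16037 genes.

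Nec-1, given with LPS+zVAD in WT, moved 13 members, 4 higher and 9 lower, against 18.7% and 9.78% of all genes. Eif2b4 read 10.82 and 10.22 with LPS+zVAD and 12.25 and 12.36 with Nec-1 added, a rise of 1.78 (limma adjusted p = 9.19e-06). Eif2b3 read 8.62 and 8.28, then 9.66 and 9.57, a rise of 1.16 (adjusted p = 0.000951). Eif1 read 17.19 and 17.24, then 16.23 and 16.18, a fall of 1.02 (adjusted p = 0.00013), and Eif4b 13.36 and 13.44, then 12.35 and 12.28, a fall of 1.08 (adjusted p = 0.00409). These 4 calls held throughout in the sense given above. When only the 4 arrays of this comparison were fitted, 0 members were called.

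Eif4e read 13.80 and 14.50 with LPS+zVAD and 12.57 and 12.88 with Nec-1, close to its 12.63 and 12.93 with LPS alone, and fell by 1.43 (limma adjusted p = 0.00398, but 0.0842 without WT LPS+zVAD replicate 2). Eif4ebp3 (-0.89), Eif3j1 (-0.83), Eif2s3x (-0.74), Eif3e (-0.71), Eif1a (-0.70) and Eif3f (-0.69) were also lower and Eif4enif1 (0.55) and Eif1ax (0.52) higher. Eif1a, Eif1ax and Eif3f were kept in 1 of 4 fits, Eif2s3x, Eif3j1 and Eif4enif1 in 2 and Eif3e and Eif4ebp3 in 3. The count was 4 without WT LPS+zVAD replicate 2 and 7 without WT LPS+zVAD+Nec-1 replicate 2, and 22 with the slide as a block. The comparison shares the LPS+zVAD arrays with that of LPS+zVAD against LPS, so the opposite signs of the 2 are not independent. With IFNβ+zVAD, Nec-1 called 0 members and 0% of all genes. At an unadjusted p under 0.05 by limma there were 3 members and 613 of the 16036 genes tested.

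**Figure D5:**
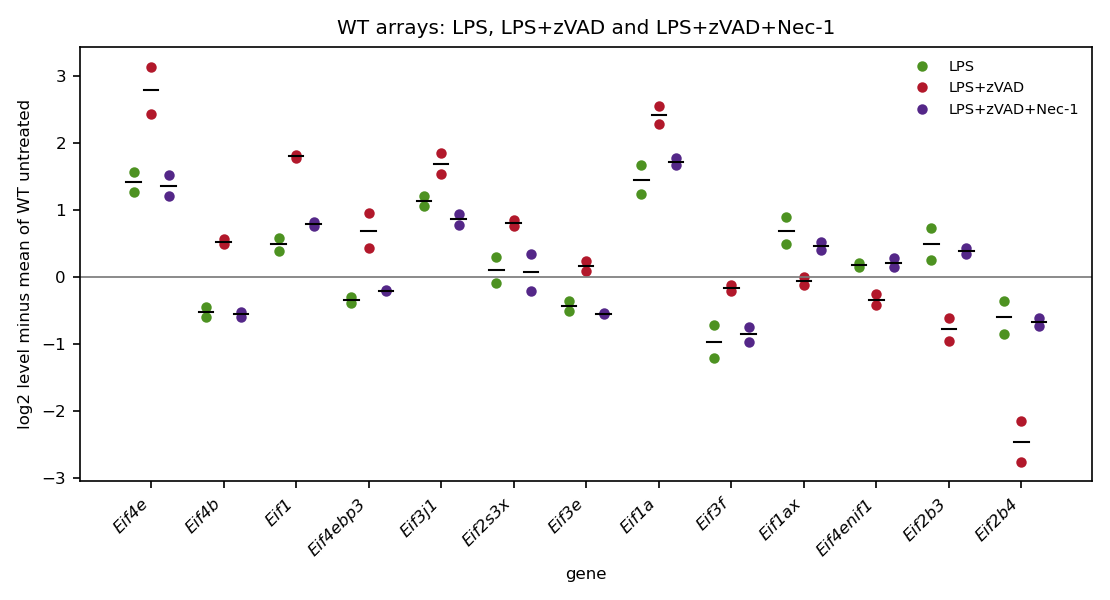
Log2 level (quantile-normalized) minus the mean of the 2 untreated WT arrays, 1 point for each WT array with LPS, LPS+zVAD or LPS+zVAD+Nec-1 (n = 2) and a bar at the mean, for the 13 members called with Nec-1, ordered by that change. The LPS+zVAD points of Eif4e lay above, and those of Eif2b4 below, the points with LPS alone and with Nec-1 added.

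The rest of the translation machinery was followed in 15 genes of elongation and termination and 25 regulators of initiation, all measured. Under quantile normalization these genes were read against the shares given above for all genes. Of the 15 elongation and termination genes 4 were higher and 6 lower with LPS in WT (median log2 fold change -0.20), where 16.3% and 24.8% of all genes were, 1 and 7 with IFNβ (median -0.44, against 13.7% and 21.6%), and 4 and 5 with LPS+zVAD (median -0.13, against 18.3% and 32.7%). With LPS in Ifnar1-/- 5 were higher and 3 lower (median 0.06), against 10.9% and 13.9%. With 75th percentile scaling these counts were 4 and 2 (median 0.04), 1 and 2 (median -0.22), 7 and 5 (median 0.48), and 4 and 2 (median 0.34). Of the 25 regulators 6 were higher and 8 lower with LPS in WT (median 0.04), 5 and 8 with IFNβ (median -0.10), 9 and 8 with LPS+zVAD (median 0.10), and 7 and 4 with LPS in Ifnar1-/- (median 0.00). With 75th percentile scaling they were 8 and 4 (median 0.40), 6 and 3 (median 0.04), 10 and 6 (median 0.29), and 7 and 2 (median 0.14).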

How the data were processed

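RNA of 32 samples, 16 groups of 2, was hybridised to 1-colour Agilent arrays on 4 slides, each with the 8 treatments of 1 genotype and 1 replicate number. The deposited scanner files hold an intensity for each spot, which the authors extracted with Feature Extraction per the file headers. The authors' own table of log2 values, normalized and reduced to 1 value per gene, was deposited too and served as an alternative. Its array medians lay between 7.61 and 7.8 and the lowest correlation of its gene-centred values with the scanner values was 0.916.

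From the processed intensities, control spots and spots with outlier flags (130 to 499 an array) were left out and 0 spots were saturated. Log2 values were quantile-normalized between arrays, spots of a probe averaged, and probes kept that were well above background on at least 50% of the arrays. Each gene took its brightest probe, which left 16037 genes. Of 27 second probes of members, 7 had the opposite sign with LPS+zVAD in WT. Of these, 3 belonged to called members (Eif3c, Eif3j1 and Eif4e2). Between 45.4% and 78.3% of probes were above background on an array, which, with 2 arrays a group, limits the precision. The median was 63.2% on WT arrays (55.6% to 78.3%) and 54.4% on Ifnar1-/- arrays (45.4% to 62.1%). The WT slides were scanned on days numbered 1 and 2 and both Ifnar1-/- slides on day 3. Genotype cannot be told apart from these differences either. Groups were compared with limma 3.58.1 in R 4.3.3 in 1 fit of all arrays (16 residual degrees of freedom) with Benjamini-Hochberg adjustment over all genes. The design was also run on simulated data, which, unlike these arrays, held no slide effect. That run therefore tested the design only where no such effect is present. The 2 differences in the response to IFNβ were added after seeing the data.

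Replicate numbers mark slides. Deviations from the group means correlated between arrays of the same slide in all 28 pairs of treatments in each genotype (r from 0.319 to 0.67 in WT and from 0.17 to 0.575 in Ifnar1-/-), so a fit with the slide as a block was run as an alternative. The others were 75th percentile scaling, normexp background correction, no filter on dim probes, the mean of the probes of a gene, the authors' table, outlier spots kept, only the arrays compared, and each array left out in turn. Fits without the discordant groups were chosen after seeing the data. In each comparison every called member was named, and values by array were given for the 4E-binding members and for up to 5 members of each factor with the widest range of group means, mainly in the groups compared, with arrays of some groups given as ranges or not printed. The members and gene lists were chosen with earlier results of these data known. Promoter windows came from RefSeq.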

Additional observations from a re-analysis of the deposited data

Results flagged for a closer look

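The responses of 24 gene-and-treatment pairs differed between the genotypes by a test of the difference itself, an interaction term in limma with adjustment over all genes. Each value is the log2 response in Ifnar1-/- minus that in WT, and no explanation of any of them was tested.

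With LPS, Eif2b4 (1.22) and Eif3l (0.72) differed. With LPS+zVAD, Eif2b4 (2.21), Eif2b3 (1.84) and Eif3c (0.80) were higher in Ifnar1-/- and Eif1a (-1.17) was lower. With IFNβ, Eif4ebp2 (2.03), Eif2b3 (1.12), Eif3l (1.11), Eif3g (0.78) and Eif5a2 (0.72) were higher, and Eif4e3 (-1.70), Eif4g3 (-1.24), Eif1a (-1.21) and Eif2s1 (-1.08) lower. With IFNβ+zVAD, Eif4ebp2 (2.14), Eif4a2 (1.09), Eif3l (0.99) and Eif3g (0.69) were higher, and Eif1a (-1.38), Eif4e3 (-1.26), Eif4g3 (-1.02), Eif1 (-0.69) and Eif4e2 (-0.60) lower. The comparisons share the untreated arrays of both genotypes.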

How the results depend on the processing

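Of 180 calls of a named member in a comparison, 121 kept their direction and call under 75th percentile scaling, 52 lost the call and 7 turned. Normexp background correction kept 148, no filter on dim probes 144, the mean of the probes of a gene 150, the table of the authors' values kept 127 of 165, and only the arrays compared 72. The slide as a block kept 162 of 162, and keeping outlier spots kept 180. Of 816 fits of a call with 1 of its arrays left out, 523 kept it and 293 lost it. Leaving out the Ifnar1-/- LPS+zVAD+Nec-1 arrays kept 180, and leaving out the WT IFNβ+zVAD+Nec-1 arrays kept 178. The cause of these changes was not tested.

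Under 75th percentile scaling Eif2b2 turned with LPS in WT (0.020), Eif3h with IFNβ (0.021) and IFNβ+zVAD (0.082), Eif3c (0.40) and Eif3k (0.31) with LPS+zVAD, Eif3l with LPS+zVAD in Ifnar1-/- (0.018) and Eif3g between genotypes (-0.018). With the mean of the probes Eif4g3 turned between genotypes (0.12).

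Counts of called members that moved by more than 1.5 times were as follows, without the shares of all genes called under these settings. With only the arrays compared they were 6 for LPS, 10 for IFNβ and 6 for IFNβ+zVAD in WT, 2 for zVAD added to LPS, 0 for Nec-1 added to LPS+zVAD, 2 for zVAD added to LPS in Ifnar1-/-, 4 between genotypes, and 0 and 5 for the differences in the response to LPS and IFNβ+zVAD. Under 75th percentile scaling they were 12 for IFNβ, 13 for IFNβ+zVAD, 1 for zVAD added to LPS in Ifnar1-/- and 0 for the difference with LPS. With no filter they were 10 for LPS in Ifnar1-/- and 4 for the difference with IFNβ+zVAD. The authors' table gave 9 for LPS in Ifnar1-/- and 1 for the difference with LPS, normexp 1 for that difference, and all 4 discordant arrays left out 4.

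With the slide as a replicate block, which pairs the arrays, the counts were 30 for IFNβ in WT, 22 for LPS+zVAD in Ifnar1-/-, 25 for zVAD added to LPS, 22 for Nec-1, 10 for zVAD added to LPS in Ifnar1-/-, and 6, 9, 18 and 18 for the differences with LPS, LPS+zVAD, IFNβ and IFNβ+zVAD. The block changed no other count by that much. Between genotypes, where the slide could only be a random block, 16 of 18 calls were kept.

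With 1 array left out, the counts ranged from 13 to 20 for LPS, 10 to 14 for IFNβ, 13 to 19 for LPS+zVAD and 10 to 14 for IFNβ+zVAD in WT, and from 5 to 7 for LPS and 7 to 7 for LPS+zVAD in Ifnar1-/-. They ranged from 6 to 16 for zVAD added to LPS, 4 to 13 for Nec-1 with LPS+zVAD, 0 to 2 for Nec-1 with IFNβ+zVAD, 1 to 1 for zVAD added to LPS in Ifnar1-/- and 11 to 14 between genotypes. For the differences they ranged from 0 to 6 with LPS, 2 to 6 with LPS+zVAD, 5 to 8 with IFNβ and 4 to 7 with IFNβ+zVAD. The group left with 1 array was assumed to vary like the others. The shares of all genes called in these fits are not given, so the ranges have no background to be read against. With 2 arrays a group, small differences were not detectable, and the dim probe of Eif5b limits its values.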
